A study of Mus musculus with 16 samples.

Results

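This is a description of 10 enzymes of methionine and one-carbon metabolism in mouse liver, chosen by symbol as 10 of the 52143 genes of a table of estimated RNA-seq counts. All 10 were found, and all 10 passed the filter on low counts, which left 11324 genes to be tested. Liver RNA came from male C57BL6/J mice that were 6 weeks old when they were placed for 12 weeks on chow or on a high-fat diet (HFD, 60% fat). On either diet, injections at intervals of 2 weeks delivered saline alone or an siRNA (3 mg/kg, with a sugar tag that hepatocytes take up) directed at *Fgfr4*, a receptor for the gut hormone FGF15/19. The 4 groups of 4 libraries are named Chow and HFD for the saline-injected mice, and Chow/FGFR4 KD and HFD/FGFR4 KD for those given the siRNA. The control mice received saline and not a control siRNA, so loss of the receptor and exposure to an siRNA cannot be told apart. *Fgfr4* was between 25.8 and 36.3 CPM (counts scaled to library size) in the Chow libraries and between 2.76 and 6.17 CPM in the Chow/FGFR4 KD libraries. It was between 21.8 and 30.1 CPM in the HFD libraries and between 2.43 and 5.31 CPM in the HFD/FGFR4 KD libraries, so every label of knockdown (KD) matched its target.

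The methionine cycle makes S-adenosylmethionine (SAM), the methyl donor of the cell, and liver carries out much of it. MAT1A makes SAM from methionine, methyltransferases such as GNMT, PEMT and NNMT spend it, and AHCY splits the product S-adenosylhomocysteine into adenosine and homocysteine. Homocysteine is then either methylated back to methionine, for which BHMT takes a methyl group from betaine, or passed by CBS and CTH through transsulfuration to cysteine. GNMT turns glycine into sarcosine, SARDH turns sarcosine back into glycine, and SHMT1 links serine and glycine to the folate pool.

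All 10 transcripts were abundant in liver, with mean CPM at or above the 88.1 percentile of the genes tested. On a per-length scale, which allows levels of different genes to be compared (CPM per kilobase of the principal transcript, mean of 16 libraries), *Bhmt* was first at 1370 and *Gnmt* second at 832. *Mat1a* followed at 534, *Ahcy* at 415, *Sardh* at 175, *Cth* at 158 and *Pemt* at 156, and the lowest levels were those of *Nnmt* (78.7), *Cbs* (60.2) and *Shmt1* (50.3). The place of *Cbs* rests on the length of its principal transcript, 6226 bases. By CPM alone *Cbs* was at 375, above *Cth* (286.3), *Pemt* (156.2), *Shmt1* (143.9) and *Nnmt* (82.08). *Bhmt* was above *Gnmt*, and *Ahcy* above *Sardh*, in 16 of 16 libraries, and *Pemt* was above *Nnmt* in 15. The other neighbours were less firmly ordered. *Gnmt* was above *Mat1a* in 12 of 16 libraries and below it in all 4 HFD libraries (group means 588 and 663), and *Mat1a* was above *Ahcy*, *Sardh* above *Cth*, *Cth* above *Pemt* and *Cbs* above *Shmt1* in 10 of 16 each. *Nnmt* varied most, by 5.68-fold between its lowest and highest library, and *Pemt* least, by 1.45-fold. The lowest count of any of the 10 was 224, for *Nnmt* in HFD 3, where counting error alone is 6.68% (SD).

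Transcript sequence limits 2 of these values. Of the 31-base words in the *Ahcy* transcripts, 71.4% also occur in other annotated genes, foremost *Gm4737*, and 30.3% of those of *Bhmt* do, foremost in *Gm5096* and *Bhmt-ps1*, so counts of these genes could be divided among copies. The share was 6.08% for *Cbs*, 5.11% for *Sardh* (which overlaps the antisense gene *Sardhos*), 4.86% for *Shmt1*, 1.33% for *Pemt* and 0.036% for *Cth*. It was 0 for *Gnmt*, *Mat1a* and *Nnmt*.

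The sequences upstream of *Gnmt*, *Ahcy* and *Cbs* are shown because these genes changed with diet in saline-injected mice and their windows hold at least 200 bases outside annotated exons. They come from RefSeq (GRCm38.p6), which gave a window of 250 bases before the start site for 7 of the 10 enzymes (8 windows, with *Pemt* having 2), and not for *Mat1a*, *Cth* and *Nnmt*. Exonic bases were removed, and capitals mark AGGTCA on either strand (the half-site of many nuclear receptors) or CACGTG (the E-box, bound among others by clock factors).

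*Gnmt*, chr17:46729169-46729415, minus strand: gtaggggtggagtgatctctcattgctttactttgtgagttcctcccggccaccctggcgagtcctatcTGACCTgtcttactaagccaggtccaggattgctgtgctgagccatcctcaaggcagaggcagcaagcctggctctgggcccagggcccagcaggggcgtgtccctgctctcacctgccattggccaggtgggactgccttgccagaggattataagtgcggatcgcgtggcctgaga

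*Ahcy*, chr2:155074498-155074747, minus strand: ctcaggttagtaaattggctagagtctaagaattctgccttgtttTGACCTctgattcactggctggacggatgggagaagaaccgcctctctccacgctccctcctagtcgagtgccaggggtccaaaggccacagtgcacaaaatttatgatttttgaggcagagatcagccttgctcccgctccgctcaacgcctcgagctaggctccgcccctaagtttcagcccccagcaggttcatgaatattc

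*Cbs*, chr17:31637239-31637455, minus strand: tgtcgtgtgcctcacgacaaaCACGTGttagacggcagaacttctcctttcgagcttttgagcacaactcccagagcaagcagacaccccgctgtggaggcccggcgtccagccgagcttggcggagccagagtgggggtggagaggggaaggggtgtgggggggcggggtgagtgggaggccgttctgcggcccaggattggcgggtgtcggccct

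AGGTCA was present once in the window of *Gnmt*, starting 181 bases before the start site, once in that of *Ahcy* (205 bases before it), once in that of *Sardh* (204) and 3 times in that of *Bhmt* (234, 72 and 47). It was in 14.0% of all 32851 windows of this length. CACGTG was found only for *Cbs*, 229 bases before the start site, against 6.0% of all windows. TATAA stood about 30 bases before the start site of *Gnmt*, where its matches on both strands overlap (31 and 30 bases), and 33 bases before one of the start sites of *Pemt*, against 22.8% of all windows. CCAAT was present in *Gnmt*, *Ahcy*, *Bhmt*, *Cbs*, *Shmt1* and 1 of the 2 *Pemt* windows, against 33.8% of all windows. These matches describe letters and not binding.

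Libraries held between 3445949 and 5976449 counts, of which the non-coding gene *Gm42418* took 11.1% to 22.7%. The HFD group fell into 2 pairs of libraries, HFD 1 with HFD 3 and HFD 2 with HFD 4. On the first principal component the first pair lay at 25.7 and 30.4 and the second at 5.97 and 9.64, and counts differed by a chi-square per degree of freedom of 11.4 and 11.7 within the pairs and of 34.7 to 58.9 between them. *Gnmt*, *Ahcy*, *Bhmt*, *Sardh* and *Nnmt* were lower in both libraries of the first pair than in those of the second. *Col1a1*, a collagen gene of stellate cells, was at 38.6 and 41.1 CPM in the first pair and at 5.89 and 8.48 CPM in the second. No label separates the pairs, and their part in the results was not tested, but values without either pair are given with the results, as an alternative chosen after the data were seen that leaves 2 HFD libraries. HFD/FGFR4 KD 1 stood apart from its own group on this component (-6.33, against 16.7 to 20.5 for the other 3).

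The first comparison asks what 12 weeks of HFD did to the enzymes in saline-injected mice. HFD raised the transcript of *Mat1a*, whose enzyme makes SAM, and lowered that of *Gnmt*, whose enzyme uses it. The transcripts of both enzymes of transsulfuration, *Cbs* and *Cth*, were lower too. *Ahcy* was lower as well, but its groups overlapped and the result was lost without some single libraries. A gene counted as called where limma-voom gave p under 0.05 and, after adjustment over all genes (Benjamini-Hochberg), a value under 0.25. By this rule 5 of the 10 enzymes were called, 1 higher and 4 lower, where 26% of all genes tested were called. The median change of the 10 was -0.19 on the log2 scale, beside 0.01 over all genes.

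*Mat1a* stood at 1509, 1438, 1719 and 1331 CPM in the Chow libraries and at 2304, 2245, 2066 and 2588 CPM in the HFD libraries. All HFD libraries were above all Chow libraries. The level rose by 0.62 on the log2 scale (SE 0.0938, limma-voom adjusted p = 0.00118, n = 4 per group), 1.54-fold.

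*Gnmt* stood at 964, 910, 1078 and 980 CPM in the Chow libraries and at 557, 643, 524 and 711 CPM in the HFD libraries. The groups did not overlap here either, in the direction opposite to *Mat1a*. *Gnmt* fell by 0.70 on the log2 scale (SE 0.124, limma-voom adjusted p = 0.00335), to 61.9% of the Chow mean. Among the other users of SAM, *Pemt*, which methylates phosphatidylethanolamine to phosphatidylcholine, was at 154.7 ± 8.16 CPM in Chow and 154.2 ± 6.72 CPM in HFD (mean ± SD, n = 4), a difference of -0.01 with a 95% interval from -0.19 to 0.18 (log2). *Nnmt*, which methylates nicotinamide, was at 89.2 ± 29.9 CPM in Chow and 53.3 ± 18.1 CPM in HFD, and this difference of -0.76 (SE 0.366) did not pass the threshold (limma-voom adjusted p = 0.205).

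Because scaling touches both genes of a library alike, the ratio of *Gnmt* to *Mat1a* within each library does not depend on it. *Gnmt* counts per 100 *Mat1a* counts were 63.9, 63.3, 62.7 and 73.7 in the Chow libraries and 61.1, 56.7, 71.5 and 52.7 in the Chow/FGFR4 KD libraries. They were 24.2, 28.6, 25.4 and 27.5 in the HFD libraries and 46.6, 38.9, 43.5 and 49.4 in the HFD/FGFR4 KD libraries. The HFD libraries were the lowest 4 of the 16 and the HFD/FGFR4 KD libraries the next 4, with no overlap between these groups or with either chow group. This ratio was chosen after its values were seen and is given as a description, with no test.

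**Figure D1:**
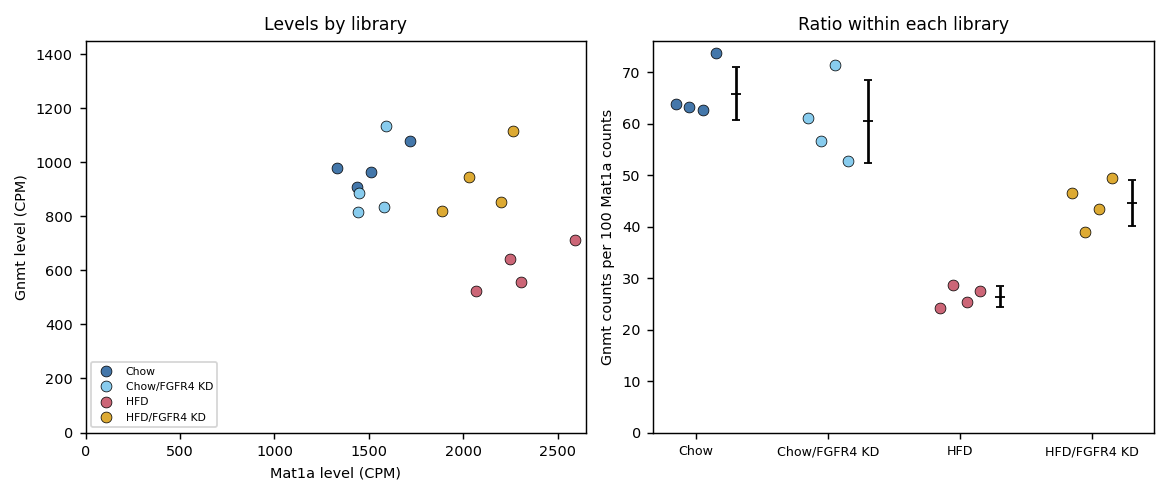
Left, level of *Gnmt* against level of *Mat1a* (both in CPM), 1 point per library, colours for the 4 groups; right, *Gnmt* counts per 100 *Mat1a* counts by group, points for libraries and bars for mean ± SD (n = 4). The mean ratio was 65.9 in Chow, 60.5 in Chow/FGFR4 KD, 26.4 in HFD and 44.6 in HFD/FGFR4 KD.

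The transcripts of both transsulfuration enzymes were lower on HFD. *Cth*, whose enzyme releases cysteine from cystathionine, stood at 367, 284, 328 and 295 CPM in the Chow libraries and at 202, 243, 142 and 178 CPM in the HFD libraries. It fell by 0.75 on the log2 scale (SE 0.203, limma-voom adjusted p = 0.0279), to 60.1% of the Chow mean, with no overlap between the groups. *Cbs*, whose enzyme joins homocysteine to serine, stood at 396, 425, 395 and 369 CPM in Chow and at 338, 323, 272 and 296 CPM in HFD. It fell by 0.37 (SE 0.107, limma-voom adjusted p = 0.0386), again without overlap.

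*Ahcy* stood at 1109, 1061, 1374 and 1194 CPM in the Chow libraries and at 798, 1076, 691 and 1114 CPM in the HFD libraries, so the groups overlapped. Its fall by 0.385 on the log2 scale (SE 0.148, limma-voom adjusted p = 0.112) was lost without Chow 3 (-0.31, adjusted p = 0.22), HFD 1 (-0.33, adjusted p = 0.248) or HFD 3 (-0.26, adjusted p = 0.314). The transcripts for betaine-dependent remethylation and the sarcosine step did not pass the test. *Bhmt* was at 3242 ± 740 CPM in Chow and 3397 ± 833 CPM in HFD (difference 0.07, 95% interval -0.41 to 0.54), and *Sardh* at 782.8 ± 51.1 and 785.3 ± 91.4 CPM (difference 0.00, interval -0.24 to 0.24). *Shmt1* was higher in every HFD library (157.1 to 165.8 CPM) than in any Chow library (110.1 to 156.8 CPM), but its difference of 0.24 did not pass (SE 0.115, limma-voom adjusted p = 0.209). Together 5 of the 10 enzymes had Chow and HFD libraries that did not overlap, as had 16.1% of all genes tested.

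Without HFD 1 and HFD 3, *Mat1a* (0.70, adjusted p = 0.00885), *Gnmt* (-0.53, adjusted p = 0.064), *Cth* (-0.60, adjusted p = 0.211) and *Cbs* (-0.35, adjusted p = 0.171) were still called by limma-voom and *Ahcy* was not (-0.10, adjusted p = 0.773). Without HFD 2 and HFD 4 all 5 were called, *Mat1a* at 0.55, *Gnmt* at -0.86, *Cth* at -0.90, *Cbs* at -0.39 and *Ahcy* at -0.67, and *Nnmt* as well (-1.18, adjusted p = 0.107).

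The diet calls for *Ahcy*, *Cbs* and *Shmt1* changed with library totals, while the same 5 enzymes were called with upper quartile or RLE scaling. TMM factors were 0.836 to 1.03 in the Chow libraries and 1.05 to 1.17 in the HFD libraries, so leaving them out shifts these groups against each other. With library totals in place of TMM factors, the median of all genes moved to 0.29 on the log2 scale, *Ahcy* was at -0.11 (adjusted p = 0.654) and *Cbs* at -0.09 (adjusted p = 0.549), and 92.1% of the genes called were higher on HFD against 51.2% before, while *Mat1a*, *Gnmt* and *Cth* were called under both. *Shmt1* became called with library totals (0.52, limma-voom adjusted p = 0.0347), *Pemt* and *Sardh* were at 0.27 and 0.28 without a call, and *Gnmt* was at -0.42 (adjusted p = 0.0576).

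**Figure D2:**
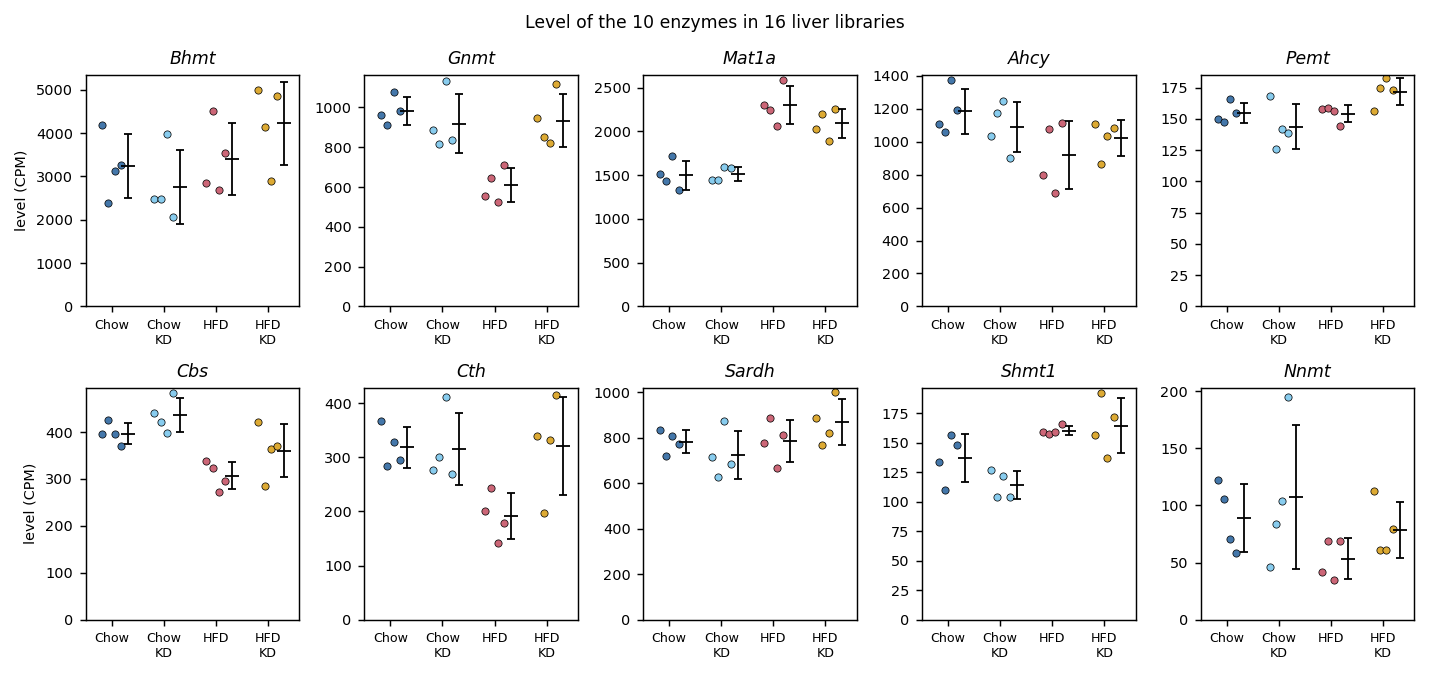
Level of each of the 10 enzymes in CPM (vertical axes, starting at 0) in 16 libraries, by group; points are libraries and bars are mean ± SD (n = 4). *Gnmt* and *Cth* are low in the HFD group and near their chow levels in HFD/FGFR4 KD, while *Mat1a* is high in both HFD groups.

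The second comparison asks what the FGFR4 KD did in mice on HFD. *Gnmt* and *Cth* rose, and these are also genes that HFD lowered in saline-injected mice. Both comparisons use the same HFD libraries, so a low HFD group enters both with opposite sign. These 2 of the 10 enzymes were called, both higher, against 3.14% of all genes tested (170 higher and 186 lower). The median change of the 10 was 0.20 on the log2 scale, beside 0.00 over all genes, and 9 of the 10 had a positive sign.

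*Gnmt* stood at 945, 854, 822 and 1116 CPM in the HFD/FGFR4 KD libraries, all above the highest HFD library at 711 CPM. It rose by 0.62 on the log2 scale (SE 0.124, limma-voom adjusted p = 0.0486), 1.53-fold, and was 1 of the 31 genes with an adjusted p under 0.05. It was the only one of the 10 enzymes with no overlap between the groups, as 6.49% of all genes had none. *Gnmt* was called in 8 of 8 fits that left out a library of these groups, with changes from 0.53 to 0.70. Its limma-voom adjusted p in these fits was 0.0445 to 0.166, so the value under 0.05 was not kept in all of them. *Gnmt* was not called without both HFD 1 and HFD 3 (0.46, limma-voom adjusted p = 0.334), and was called without HFD 2 and HFD 4 (0.78, adjusted p = 0.0165).

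*Cth* stood at 340, 196, 331 and 415 CPM in the HFD/FGFR4 KD libraries. The second of these lay within the range of the HFD libraries (142.1 to 243.3 CPM) and the other 3 above it. *Cth* rose by 0.72 (SE 0.203, limma-voom adjusted p = 0.177), 1.65-fold, and this call was less stable than that of *Gnmt*. It was lost without HFD 1 (0.755, adjusted p = 0.257), HFD 3 (0.59, adjusted p = 0.439), HFD 4 (0.70, adjusted p = 0.271), HFD/FGFR4 KD 1 (0.68, adjusted p = 0.357), HFD/FGFR4 KD 3 (0.69, adjusted p = 0.346) or HFD/FGFR4 KD 4 (0.58, adjusted p = 0.409). Without both HFD 1 and HFD 3, *Cth* was at 0.57 (limma-voom adjusted p = 0.531), and 0 of the 10 enzymes were called. Without HFD 2 and HFD 4, *Cth* was called (0.87, limma-voom adjusted p = 0.109), as was *Ahcy* (0.46, adjusted p = 0.154). Calls over all genes were not counted for these fits.

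The other 8 enzymes did not pass the test under KD on HFD. *Mat1a* stood at 2030, 2196, 1888 and 2261 CPM in the HFD/FGFR4 KD libraries, a difference of -0.135 from HFD with a 95% interval from -0.33 to 0.07. *Cbs* was at 422, 286, 363 and 370 CPM, a difference of 0.22 (SE 0.107, limma-voom adjusted p = 0.468), which was called only without HFD/FGFR4 KD 2 (0.33, adjusted p = 0.171). *Pemt* was at 171.8 ± 10.8 CPM in HFD/FGFR4 KD (difference 0.16, interval -0.03 to 0.34), and *Ahcy* at 1024 ± 111 CPM (difference 0.18, interval -0.14 to 0.49). *Bhmt* (0.32, interval -0.16 to 0.80), *Sardh* (0.145, interval -0.09 to 0.38), *Shmt1* (0.03, interval -0.22 to 0.27) and *Nnmt* (0.58, interval -0.19 to 1.36) had intervals that span 0 as well, and that of *Nnmt* is wide.

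**Figure D3:**
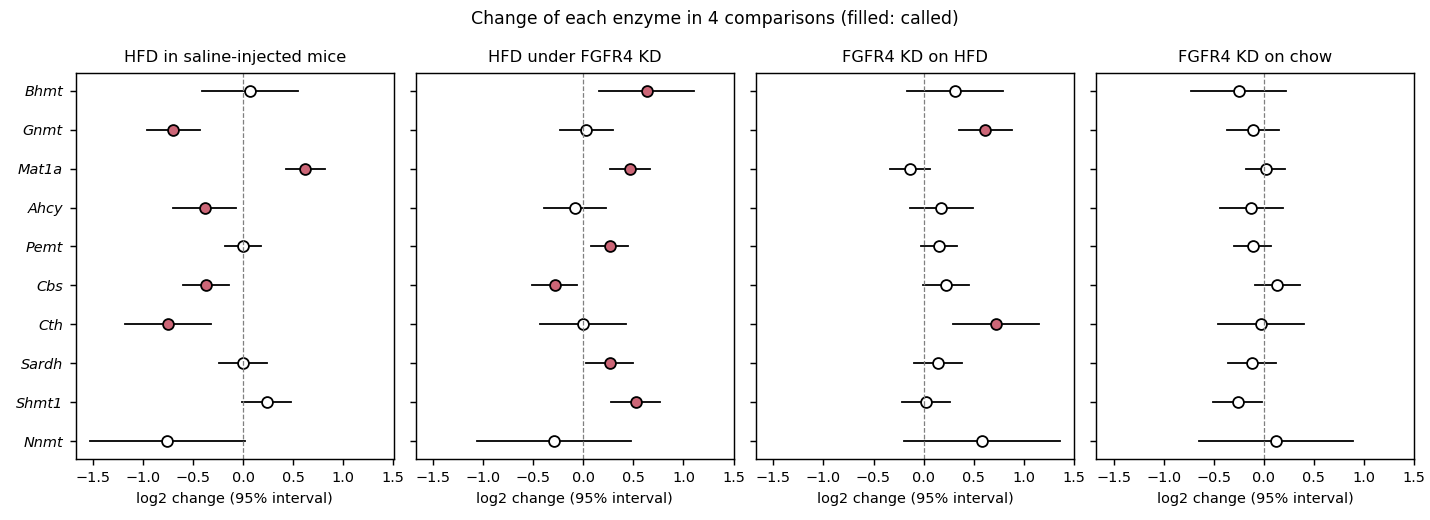
Log2 change of each enzyme (horizontal axis) with its 95% interval from limma-voom in 4 comparisons; filled points are called. *Gnmt* and *Cth* lie at -0.70 and -0.75 for HFD in saline-injected mice, at 0.62 and 0.72 for FGFR4 KD on HFD, and near 0 in the other 2 comparisons.

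In mice on chow, 0 of the 10 enzymes were called with FGFR4 KD by limma-voom, by edgeR or by DESeq2. Over all genes limma-voom called 0.00883%, which is *Fgfr4* alone, and DESeq2 called 2 genes. *Gnmt* stood at 885, 816, 1135 and 834 CPM and *Cth* at 277, 301, 412 and 269 CPM in the Chow/FGFR4 KD libraries, overlapping Chow. Their differences were -0.11 (95% interval -0.37 to 0.15) and -0.03 (interval -0.46 to 0.40). Of the 10, 1 had an unadjusted p under 0.05, *Shmt1* at -0.26 (SE 0.117, limma-voom adjusted p = 0.976), beside 519 of all 11324 genes. *Mat1a* was at 1447, 1441, 1588 and 1582 CPM, with a difference of 0.02 and an interval from -0.18 to 0.22.

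The fourth comparison sets HFD against chow within the KD mice, and there 6 of the 10 enzymes were called, 5 higher and 1 lower, against 20.2% of all genes tested. The rise was 0.47 for *Mat1a* (SE 0.0931, limma-voom adjusted p = 0.0156) and 0.52 for *Shmt1* (SE 0.117, adjusted p = 0.0245), both with no overlap between the groups, as had 11.5% of all genes. *Shmt1* stood at 127, 104, 121 and 104 CPM in the Chow/FGFR4 KD libraries and at 156, 192, 137 and 172 CPM in the HFD/FGFR4 KD libraries. *Gnmt* and *Cth* differed by 0.03 (95% interval -0.23 to 0.29) and 0.00 (interval -0.43 to 0.43) between the diets under KD.

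*Bhmt*, *Pemt* and *Sardh* were also called higher and *Cbs* lower, with groups that overlapped. *Bhmt* stood at 2473, 2481, 3988 and 2059 CPM in the Chow/FGFR4 KD libraries and at 5004, 4149, 2890 and 4849 CPM in the HFD/FGFR4 KD libraries, a rise by 0.635 (SE 0.224, limma-voom adjusted p = 0.127). The rise was 0.26 for *Pemt* (SE 0.0859, adjusted p = 0.105) and 0.26 for *Sardh* (SE 0.112, adjusted p = 0.199), while *Cbs* fell by 0.29 (SE 0.107, adjusted p = 0.15). Without Chow/FGFR4 KD 4 the calls of *Bhmt* (0.51, adjusted p = 0.28), *Cbs* (-0.235, adjusted p = 0.3) and *Sardh* (0.24, adjusted p = 0.335) were lost. *Bhmt* was also not called without HFD/FGFR4 KD 4 (0.56, adjusted p = 0.286), *Cbs* without HFD/FGFR4 KD 2 (-0.18, adjusted p = 0.367) or with library totals (-0.13, adjusted p = 0.562), and *Sardh* in 6 of 8 fits that left out a library, which gave 0.19 to 0.36. With library totals the median of all genes moved to 0.14. *Ahcy* was at 1034, 1174, 1250 and 901 CPM in the Chow/FGFR4 KD libraries and 1108, 864, 1037 and 1086 CPM in the HFD/FGFR4 KD libraries, a difference of -0.09 with an interval from -0.40 to 0.23.

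An interaction contrast asked whether the response to the KD depended on diet. By limma-voom 0 of the 10 enzymes passed, with 3 at an unadjusted p under 0.05, and 0.0353% of all genes were called (765 at an unadjusted p under 0.05). *Gnmt* came closest, with the KD effect higher on HFD by 0.73 on the log2 scale (SE 0.176, 95% interval 0.36 to 1.10, limma-voom adjusted p = 0.491), rank 12 of all genes by p. It passed in DESeq2 (adjusted p = 0.0627) and without Chow/FGFR4 KD 3 (0.83, adjusted p = 0.233), and edgeR called 0 of the 10. It also passed without HFD 2 and HFD 4 (0.89, adjusted p = 0.0918) and not without HFD 1 and HFD 3 (0.57, adjusted p = 0.747). *Cth* differed by 0.75 (SE 0.287, adjusted p = 0.671) and *Pemt* by 0.27 (SE 0.121, adjusted p = 0.724). The intervals of *Gnmt*, *Cth* and *Pemt* lie above 0 before adjustment, and those of the other 7 span it.

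Several of the enzymes also varied together within groups. Deviations of log2 CPM from the group means were correlated over the 16 libraries, which share scaling and tissue, so these values are descriptions. *Gnmt* and *Sardh*, which make and break down sarcosine, had the highest coefficient (Pearson r = 0.871), followed by *Cth* with *Sardh* (0.845), *Bhmt* with *Sardh* (0.775), *Gnmt* with *Ahcy* (0.745) and *Bhmt* with *Gnmt* (0.736). Of the 45 pairs 12 had a negative r. *Gnmt* had an r of 0.637 with *Mat1a* within groups, although HFD moved the 2 in opposite directions. With *Cbs* it had an r of 0.01 and with *Pemt* of -0.02, while *Cbs* had 0.48 with *Cth* and 0.25 with *Sardh*. The lowest coefficients were those of *Pemt* with *Nnmt* (-0.618) and *Cbs* with *Shmt1* (-0.521). *Sardh*, which did not pass the test for HFD in saline-injected mice or for KD, thus followed *Gnmt* and *Cth* among mice of 1 group.

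**Figure D4:**
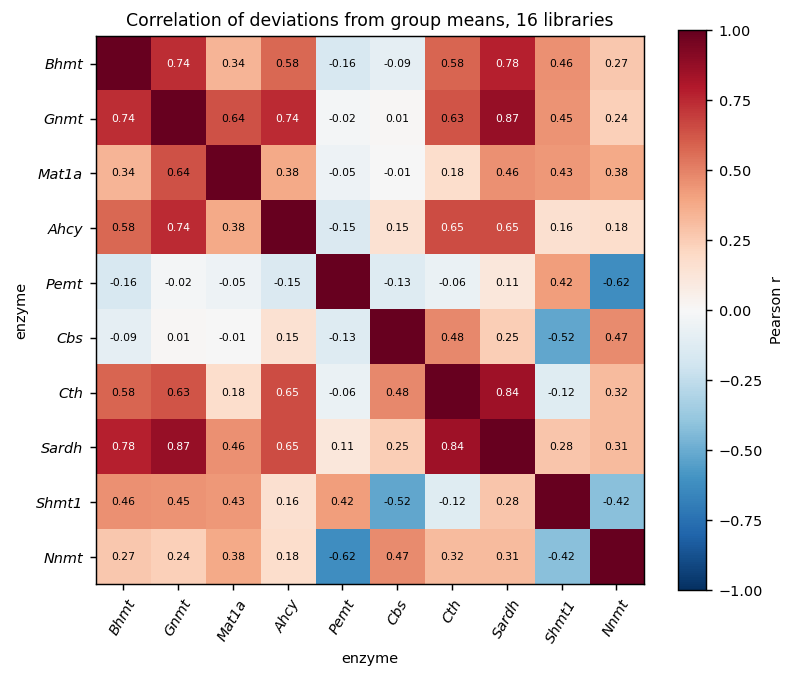
Pearson r between pairs of enzymes (both axes) of deviations of log2 CPM from group means over 16 libraries, red for positive and blue for negative values. *Gnmt*, *Sardh*, *Bhmt*, *Ahcy* and *Cth* form a block of positive values, while *Pemt* and *Nnmt* are at -0.618.

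Genes with the most similar profiles were taken from 8397 genes tested with a mean of at least 5 CPM, by Pearson r of log2 CPM over the 16 libraries. Genes without a symbol and predicted genes (Gm and Rik symbols) were left out. For *Mat1a* the nearest was *Glul* (0.955), the glutamine synthetase. *Gnmt* was nearest to *Nat8* (0.878) and the cytochrome P450 gene *Cyp2c54* (0.859). Both fell on HFD in saline-injected mice (-1.79 and -2.49) and rose with KD on HFD (1.22 and 1.93), where the groups overlapped. This likeness includes group differences, so changes shared with *Gnmt* follow from the choice and are no separate evidence. *Cyp2c54* was at 16.4 and 8.47 CPM in HFD 1 and HFD 3 and at 110 and 91.3 CPM in HFD 2 and HFD 4. *Cth* was nearest to the urea cycle gene *Ass1* (0.936) and to *Aldh1l1* (0.929), which oxidises formyl-tetrahydrofolate. *Bhmt* was nearest to *Dmgdh* (0.895), whose enzyme takes up the dimethylglycine that BHMT makes, and to *Sardh* (0.845). *Shmt1* was nearest to *Acat1* (0.928) and *Stx2* (0.9), *Cbs* to *Spcs2* (0.939) and *Rfxank* (0.914), and *Ahcy* to *Cyp2c50* (0.889) and *Il1rap* (0.873). *Sardh* was nearest to *Aldh7a1* (0.905) and *Oat* (0.854), *Pemt* to *Olig1* (0.86) and *Dgcr6* (0.836), and *Nnmt* to the acute-phase gene *Saa4* (0.915) and to *Pim1* (0.911).

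Beyond the 10 enzymes, 7 lists of neighbouring pathways held 74 genes, of which 67 were tested. HFD in saline-injected mice changed 23 of them (10 higher and 13 lower, 34.3%, against 26% of all genes), with a median of -0.01 beside 0.01 for all genes. The largest fall among those named was that of *Csad*, an enzyme of taurine synthesis, from 401 ± 58.9 to 102 ± 41.9 CPM (-2.11, SE 0.309, limma-voom adjusted p = 0.000979). *Mtr*, the methionine synthase of the folate-dependent route back to methionine, rose by 0.45. *Chka*, a choline kinase, fell by 1.49 and *Gcat*, which breaks down threonine to glycine, by 0.91, and *Mat2a*, the SAM synthetase of tissues other than liver, fell by 0.47 where *Mat1a* rose. By list, 4 of 8 remethylation and SAM supply genes were called, 2 of 6 other methyltransferases, 4 of 10 choline and betaine genes, 3 of 12 cysteine, glutathione and taurine genes, 5 of 15 folate genes, 2 of 9 glycine and serine genes and 3 of 7 nicotinamide genes.

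FGFR4 KD on HFD changed 3 of the 67 (4.48%, against 3.14% of all genes). Among them, *Fmo1*, a monooxygenase that can oxidise hypotaurine to taurine, and *Ftcd*, which feeds a carbon of histidine into the folate pool, fell by 0.47 (limma-voom adjusted p = 0.079) and 0.30 (adjusted p = 0.24). *Csad* (0.90, adjusted p = 0.276) and *Chka* (0.91, adjusted p = 0.298) did not pass. On chow 0 of the 67 were called with KD, and 0 in the difference between the diets, by limma-voom. HFD under KD changed 25 (13 higher and 12 lower, 37.3%, against 20.2% of all genes), among them *Csad* (-1.17), *Chka* (-0.80) and *Gcat* (-0.54).

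**Figure D5:**
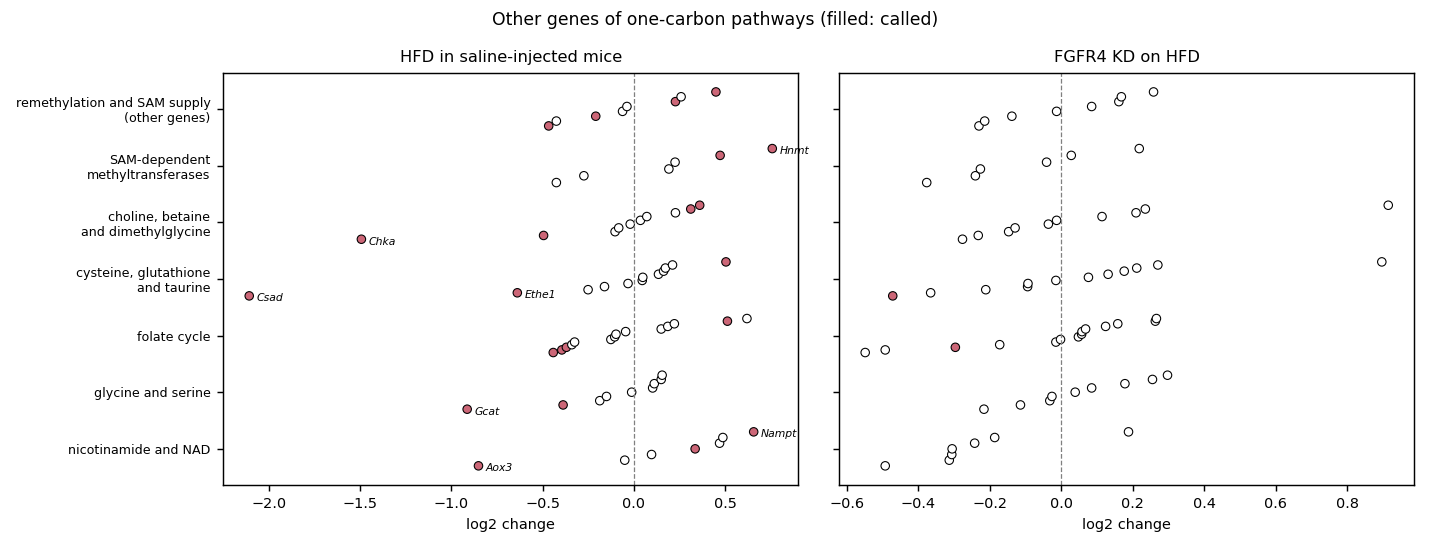
Log2 change (horizontal axes, of unequal range) of other genes of 7 one-carbon pathway lists, 1 of the 67 tested not shown, for HFD in saline-injected mice (left) and FGFR4 KD on HFD (right); each point is a gene, filled where called. Called genes with changes over 0.6 in size are named, and *Csad* is at -2.11 on the left.

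Markers of other cell types and clock genes differed between the diets as well. The counts below are of called genes. Of all genes tested, 26% were called for HFD in saline-injected mice, 3.14% for KD on HFD and 20.2% for HFD under KD. In bulk liver, fewer cells of a type and less RNA per cell cannot be told apart. The summed level of 6 hepatocyte markers was 65300 to 72300 CPM in Chow, 61000 to 77700 in Chow/FGFR4 KD, 63900 to 75600 in HFD and 64100 to 82500 in HFD/FGFR4 KD, and 3 of 6 were lower on HFD in saline-injected mice. Macrophage markers were higher there for 7 of 8 (46.2 to 54.9 CPM in Chow and 84.8 to 151 in HFD, summed), stellate cell markers for 5 of 8 (111 to 151 and 181 to 327 CPM) and endothelial markers for 3 of 6 (94.6 to 121 and 103 to 122 CPM). Only these 3 of the 6 endothelial markers had a positive sign. All 3 of the adipocyte list that were tested (*Cidec*, *Cfd* and *Fabp4*) were higher, while *Lep* was at 0 in all libraries and *Adipoq* at 0 in 11 of the 16. Cholangiocyte markers had 0 of 2 tested genes called by limma-voom. Of 5 pancreatic markers 4 were at or under 3 counts in every library, and the only one tested, *Cela1*, was lower. Of clock genes that peak with *Arntl* 5 of 5 were lower on HFD (median -1.89) and of those that peak with *Dbp* 6 of 8 were higher. With KD on HFD, 3 of the 5 genes of the *Arntl* phase were higher (median 1.05), 2 of 8 of the *Dbp* phase lower, 2 of the 3 adipocyte genes lower, and of 6 hepatocyte markers 1 higher and 1 lower. For HFD under KD, 5 of 5 of the *Arntl* phase were lower and 7 of 8 of the *Dbp* phase higher. Markers were higher for 2 of 3 adipocyte genes (*Cfd* by 3.22 and *Fabp4* by 1.04) and lower for 1 of 2 cholangiocyte genes. Calls for 2 of 8 stellate cell, 1 of 8 macrophage and 1 of 6 endothelial genes, all higher, were near or under 20.2%. The part of these shifts in the changes of *Gnmt*, *Cth* and *Mat1a* was not tested.

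Without HFD/FGFR4 KD 1, *Gnmt* was still called for KD on HFD (0.61, adjusted p = 0.115) and *Mat1a* for HFD under KD (0.48, adjusted p = 0.0164). The summed level of the 10 enzymes was 8788 ± 938 CPM in Chow, 8113 ± 1280 in Chow/FGFR4 KD, 8877 ± 1330 in HFD and 10240 ± 1370 in HFD/FGFR4 KD, where *Bhmt* and *Mat1a* make up the larger part.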

How the data were processed

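RNA-seq of liver biopsies was deposited for 16 libraries, 4 per group, grouped by the diet and treatment of their labels. Per the labels, libraries were made with a KAPA mRNA HyperPrep kit, whereas the methods of the study name HTG EdgeSeq, and which of them made the libraries was not settled. According to the processing notes of the submitters and the methods of the study, the authors trimmed reads with fastp, pseudoaligned them with kallisto (mouse build GRCm38) and summed transcripts to genes with tximport. The deposited values are therefore estimated counts, not scaled, which depend on how kallisto divided reads among similar transcripts. Versions and the transcriptome release are not given in the sources used here. Symbols were found for 98.3% of 52143 identifiers.

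The filter kept 11324 genes by dropping those below 1 CPM in over 4 libraries. TMM factors from edgeR 4.0.16 set the scale, and counts were fitted with limma-voom (limma 3.58.1, R 4.3.3) with a mean per group over all 16 libraries. Intervals are 95%. Adjustment over all genes tested followed Benjamini and Hochberg, and calls needed p under 0.05 and an adjusted p under 0.25, as in the study. There were 5 comparisons, of the KD within each diet, of the diets within each treatment, and of KD with diet as an interaction. P-values measure the spread between libraries, which the study presents as separate mice. The mice were housed 4 per cage, and how cages relate to the groups is not given, so the part of cage was not tested. Alternatives were edgeR, DESeq2 1.42.0 (both on rounded counts), other filters and scalings, quality weights for libraries, fits of 2 groups alone, blocking on replicate number, an adjusted p under 0.05, and the removal of each library in turn or (chosen after the data were seen) of 2 HFD libraries. The fit was tested on simulated counts.

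Genes named are the 10 enzymes, the called genes of 7 pathway lists (at most 3 per list and comparison by p), the 2 most similar genes for each enzyme (some results are not reported here), *Fgfr4*, and markers whose list moved. The genes sharing sequence, *Gm42418* and the promoters shown were chosen after their values were seen. The enzymes and lists were chosen with earlier results of these data known. Positions and lengths are from GENCODE M21, and levels between genes were compared per kilobase of the principal transcript (the longest where several were tied).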

Additional observations from a re-analysis of the deposited data

Results flagged for a closer look

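*Pemt* in HFD 4 stood at 144.2 CPM, below the other 3 HFD libraries at 156.5 to 158.4 CPM, and the gap to the nearest of them was 0.866 of the range of the group, above Dixon's 95% limit. It was the only one of 40 groups of 4 values in which a library stood out in this way, where chance gives about 2.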

How the results depend on the processing

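For KD on HFD, 1 enzyme in place of 2 was called with library totals, with only the groups compared and at an adjusted p under 0.05 (*Gnmt* each time), and 1 to 3 when a library was left out. For HFD under KD, 2 in place of 6 were called at an adjusted p under 0.05 (*Mat1a* and *Shmt1*), and 3 to 6 with a library left out, the lowest without Chow/FGFR4 KD 4. For the difference between the diets, 1 in place of 0 was called with DESeq2, and 0 to 1 with a library left out. For HFD in saline-injected mice, 4 to 7 were called over all alternatives, and for KD on chow 0 in each. Of 1070 alternative values of single enzymes, 1024 stayed on the same side of the threshold (3 of them moved beyond the spread between replicates), 31 lost it and 15 passed it. Of these values 36 changed sign, 0 of which were called by either fit. The cause of these changes was not tested, except that a stricter threshold calls less by construction. In an alternative added after the data were seen, KD on HFD called 0 without HFD 1 and HFD 3 (3 without HFD 2 and HFD 4), the saline-injected mice gave 4 (6), and the interaction gave 0 (1). Calls over all genes were not counted for these fits, so these counts cannot be read against a share of all genes. Without HFD 3 alone, calls over all genes for KD on HFD went from 356 to 89. *Nnmt* is limited by the spread between libraries, and its difference for HFD in saline-injected mice was called under 5 of 12 other settings.

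Replicate numbers did not pair the libraries (r of same-numbered libraries from -0.291 to 0.239). With a replicate block 2 enzymes were called for KD on HFD, 5 for HFD in saline-injected mice, 6 for HFD under KD and 0 in the other comparisons, and over all genes 259 in place of 356 for KD on HFD and 2 in place of 4 for the difference.

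Over all genes, KD on HFD called 356, against 230 by edgeR, 114 with library totals, 776 with library weights, 222 with only the groups compared and 31 at the stricter threshold, with 89 to 605 when a library was left out. KD on chow called 1 to 3. HFD in saline-injected mice called 2939, against 5324 with no filter and 1042 at the stricter threshold. HFD under KD called 2293, against 351 at the stricter threshold and 1189 to 2546 with a library left out. The difference called 4, against 54 by DESeq2, 7 with no filter or with library weights, 0 with library totals and 1 to 27 with a library left out. With library totals 82.8% of the calls for HFD under KD were higher (50.1% before) and 33.3% of those for KD on HFD (47.8% before).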
